A study of Mus musculus with 6 samples.

Results

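The 10 genes described here mark the epithelium of the lung and were chosen by symbol from the 53735 genes of the table, which holds all 10. They are the surfactant protein genes Sftpa1, Sftpb, Sftpc and Sftpd, the alveolar type 2 genes Napsa and Lamp3, the club cell gene Scgb1a1, the lung transcription factor gene Nkx2-1, and the general epithelial genes Epcam and Cdh1. They were read in mouse lung endothelial cells, selected by bead sorting for CD31 and ICAM2, kept until confluent as an unpassaged and untreated primary culture, and described by the submitters as nearly pure, although fibroblast and mesothelial genes were abundant in every library. Of the 6 RNA-seq libraries, 2 were labelled ZMPSTE24 wild type and 4 ZMPSTE24 knockout. The labels give no age and no deleted part of the gene, do not say whether a library came from a single animal or a pool, and name 2 cohorts of mice without assigning libraries to them. Nothing in them says that the libraries of a group came from separate animals, so p-values measure only the spread from library to library, and this spread can be technical.

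Lung alveoli are lined by flat type 1 cells, across which gas is exchanged, and by type 2 cells, which make and recycle surfactant, the film of lipid and protein that lowers surface tension. Type 2 cells store surfactant in lamellar bodies, where the small hydrophobic proteins SP-B and SP-C are cut from larger precursors, while the collectins SP-A and SP-D bind microbes. Club cells line the small airways and secrete the protein encoded by Scgb1a1. Endothelial cells are not known as a source of surfactant or club cell proteins, and the genes are in common use as markers of lung epithelium, though Cdh1 and Lamp3 are also expressed by other cell types.

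Depth was similar across the libraries, at 32699024 to 45613685 reads. The first principal component of the 15229 genes averaging 10 or more normalized counts held 77.3% of the variance and set wild type 1 and knockout 1 against the remaining 4. The endothelial genes Pecam1 (7429 to 30000 normalized counts), Cdh5 (13135 to 62133) and Icam2 (595 to 2440) were present in every library. Zmpste24 itself ranged from 4148 to 5503 in wild type and from 3599 to 5079 in the libraries labelled knockout, and because the deleted part is not named these counts leave the genotype labels unchecked. A normalized count is a read count divided by a factor for the size of the library, so that 1 read is worth 0.857 to 1.15 normalized counts here. Genotype differences are given as knockout minus wild type.

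Promoter windows of 4 of the 10 genes are shown because their reads form the contrast described below, with 3 genes that were at 0 or 1 read in wild type 1 and knockout 1 beside Epcam, which stayed under 7 normalized counts in every library. Each window is the 200 bases before the gene start in RefSeq on GRCm38.p6, printed on the gene's strand, at chr14:41131588-41131787 (plus strand) for Sftpa1, chr6:72304410-72304609 (plus strand) for Sftpb, chr16:19706366-19706565 (minus strand) for Lamp3 and chr17:87635779-87635978 (plus strand) for Epcam. The RefSeq table held 5 of the 10 genes. Capitals mark matches, on either strand, to CTCAAG (a form of the NKX2-1 site), TGTTTNC (forkhead), TATAAA (the TATA box) and CACCTG (an E-box form bound by SNAI and ZEB repressors).
Sftpa1: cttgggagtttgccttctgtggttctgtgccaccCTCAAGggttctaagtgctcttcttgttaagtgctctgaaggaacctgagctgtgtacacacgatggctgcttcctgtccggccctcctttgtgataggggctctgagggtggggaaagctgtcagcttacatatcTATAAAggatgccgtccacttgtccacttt
Sftpb: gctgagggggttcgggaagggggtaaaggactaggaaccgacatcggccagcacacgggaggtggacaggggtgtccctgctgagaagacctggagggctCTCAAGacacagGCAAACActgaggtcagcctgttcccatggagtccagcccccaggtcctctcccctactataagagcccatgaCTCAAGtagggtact
Lamp3: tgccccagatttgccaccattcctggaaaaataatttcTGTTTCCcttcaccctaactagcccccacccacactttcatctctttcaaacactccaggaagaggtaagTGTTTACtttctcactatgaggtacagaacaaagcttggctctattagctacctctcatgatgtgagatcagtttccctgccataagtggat
Epcam: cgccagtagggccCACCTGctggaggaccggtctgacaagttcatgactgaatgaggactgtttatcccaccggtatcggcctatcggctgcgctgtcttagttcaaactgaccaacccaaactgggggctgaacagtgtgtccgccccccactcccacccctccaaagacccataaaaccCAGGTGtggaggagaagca
CTCAAG was found in Sftpa1, from −166 to −161 before the start, and in Sftpb, from −100 to −95 and from −15 to −10. Of 27025 mouse promoter windows of the same length, 10.6% hold CTCAAG, 14.1% TGTTTNC, 10.6% TATAAA and 13.7% CACCTG. Lamp3 held TGTTTNC at −162 to −156 and at −92 to −86, and Sftpb held it on the opposite strand at −88 to −82. Sftpa1 held TATAAA at −30 to −25. Epcam held CACCTG at −187 to −182 and, on the opposite strand, at −19 to −14. The Nkx2-1 window held none of the 4 motifs, and no motif match overlapped another. A match is a description of the letters and not a measured site.

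The surfactant genes were read almost entirely in 4 of the 6 libraries. Sftpb, which encodes the surfactant protein SP-B needed for the surface film (chromosome 6, 72304610 to 72314371, plus strand), was at 1.05 normalized counts in wild type 1 and 145 in wild type 2. Its values in knockout 1 to 4 were 0, 187, 280 and 87.8. Each genotype thus held a library at 0 or 1 read beside libraries near 100 or above, and the genotypes overlapped. Wild type 2 exceeded wild type 1 by a ratio of 139 (95% counting interval 24.4 to 5520, on 126 reads against 1). Against the limit of 3 reads that a count of 0 allows, knockout 2, 3 and 4 were at least 60.7-fold, 90.7-fold and 28.5-fold higher than knockout 1. These folds set the observed reads against that limit, and the lower 95% counting limits of the ratios, which also count the error of the higher library, were 48.9, 73.4 and 22.7. Such intervals and limits cover counting error only, since the reads carry no molecular identifiers.

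Sftpc, the gene of SP-C and the classical marker of type 2 cells (chromosome 14, 70520949 to 70524081, minus strand), was at 4.19 normalized counts in wild type 1 and at 55.3 in wild type 2. Knockout 1 to 4 held 0, 120, 93.5 and 53.5. Wild type 2 exceeded wild type 1 by 13.2 (counting interval 4.84 to 50.4), and knockout 2, 3 and 4 were at least 39.1-fold, 30.3-fold and 17.4-fold above knockout 1 by the 3-read limit (lower counting limits 31.3, 24.3 and 13.6). Here knockout 2 was the highest library, whereas knockout 3 was the highest for Sftpb.

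The collectin genes lie 35761 bases apart on chromosome 14 and had fewer reads. Sftpa1, the gene of SP-A (41131782 to 41136452, plus strand), was at 1.05 in wild type 1 and 9.22 in wild type 2, and knockout 1 to 4 held 0, 39.2, 38.6 and 12.1 normalized counts. Sftpd, the gene of SP-D (41172214 to 41185149, minus strand), was at 0 in wild type 1 and 6.91 in wild type 2, while knockout 1 to 4 held 0, 51.1, 55.7 and 13.1. For both genes knockout 2 and 3 were far above wild type 2 and knockout 4, while wild type 2 was the lowest of the 4 libraries with more than 1 read. Against the 3-read limit in knockout 1, Sftpd was at least 16.6-fold higher in knockout 2, 18.1-fold in knockout 3 and 4.26-fold in knockout 4, with lower counting limits of 13.0, 14.3 and 2.99. Of the other collectin genes, Colec12, a scavenger receptor gene, had 6210 to 13572 normalized counts in all libraries, and Mbl1, which encodes a liver lectin, had no read in any library.

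Napsa and Lamp3 act in the lamellar body pathway. Napsa followed the same split, and Lamp3 followed it beyond counting error only among the knockout libraries. Napsa encodes napsin A, an aspartic protease that helps cut the SP-B precursor (chromosome 7, 44572380 to 44586862, plus strand). It was at 0 normalized counts in wild type 1, at 64.5 in wild type 2, and at 0, 67.5, 94.3 and 34.3 in knockout 1 to 4. Wild type 2 was at least 20.5-fold above the limit in wild type 1, and knockout 2, 3 and 4 at least 21.9-fold, 30.6-fold and 11.1-fold above that in knockout 1. The lower counting limits of these 4 ratios were 16.2, 17.4, 24.5 and 8.57. An antisense gene, Gm15396, overlaps 6895 bases of the Napsa gene span, introns included, and the best match of the longest Napsa transcript to it is 137 nt. The sources used here do not say whether the counting used strand, so reads from sequence shared by the 2 genes cannot be told apart. Lamp3, a membrane glycoprotein gene of lamellar bodies and of mature dendritic cells (chromosome 16, 19653378 to 19706375, minus strand), was at 0 in wild type 1, 3.46 in wild type 2, and 0, 12.8, 26.6 and 8.07 across knockout 1 to 4. Its 3 reads in wild type 2 equal the 3-read limit, and the lower counting limit against wild type 1 was 0.455. Against knockout 1, the lower counting limits of knockout 2, 3 and 4 were 2.95, 6.61 and 1.68. The longest Lamp3 transcript shares 556 nt at 96.0% identity with Ppid, an abundant gene, which makes single Lamp3 reads uncertain. Of the 9 dendritic cell genes, Zbtb46, a factor that endothelial cells also express, had 475 to 620 normalized counts, Itgae 1.71 to 9.22 and Flt3 1.15 to 5.47, with reads in all 6 libraries. Ccl22, Xcr1 and Cd207 had no read in any library, and Ccr7 had a single read, in knockout 4.

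The club cell and lineage genes had at most 20 reads in any library. Scgb1a1, the club cell secretoglobin gene (chromosome 19, 9083636 to 9087958, minus strand), was at 2.09 in wild type 1 and 2.30 in wild type 2, which is 2 reads in each. In knockout 1 to 4 it stood at 0, 5.47, 17.1 and 8.07, so that knockout 3, with 20 reads, was the highest library. Nkx2-1, the transcription factor gene that specifies lung epithelium (chromosome 12, 56531958 to 56536908, minus strand), was at 0 in wild type 1, 4.61 in wild type 2, and 0, 3.65, 6.86 and 7.07 across knockout 1 to 4. That is 4 to 8 reads in the 4 libraries with any, against a limit of 3 reads in the other two. An antisense gene, Gm26973, overlaps 1566 bases of Nkx2-1, so the strand of these few reads is also unknown.

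Of the general epithelial genes, Epcam was near the detection limit and Cdh1 was read in every library. Epcam, the epithelial cell adhesion molecule gene (chromosome 17, 87635979 to 87651129, plus strand), was at 2.09 in wild type 1 and 2.30 in wild type 2, with 1.03, 5.47, 4.29 and 6.06 across knockout 1 to 4. These are 1 to 6 reads per library, and the ratios between libraries of a genotype had counting intervals that include 1. Cdh1, the E-cadherin gene of epithelial junctions (chromosome 8, 106603351 to 106670246, plus strand), was at 17.8 in wild type 1 and 31.1 in wild type 2, with 30.8, 30.1, 43.7 and 31.3 across knockout 1 to 4. It had reads in all 6 libraries, with knockout 1 level with knockout 2 (ratio of knockout 2 to knockout 1 0.98, counting interval 0.58 to 1.66). Per length it stood at 0.0916 to 0.244 RPKM (reads per kilobase of exon, scaled to the depth of the library), against 26.2 to 75.4 for Cdh2, the N-cadherin gene, and 84.0 to 348 for Cdh5, the cadherin gene of endothelium.

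**Figure D1:**
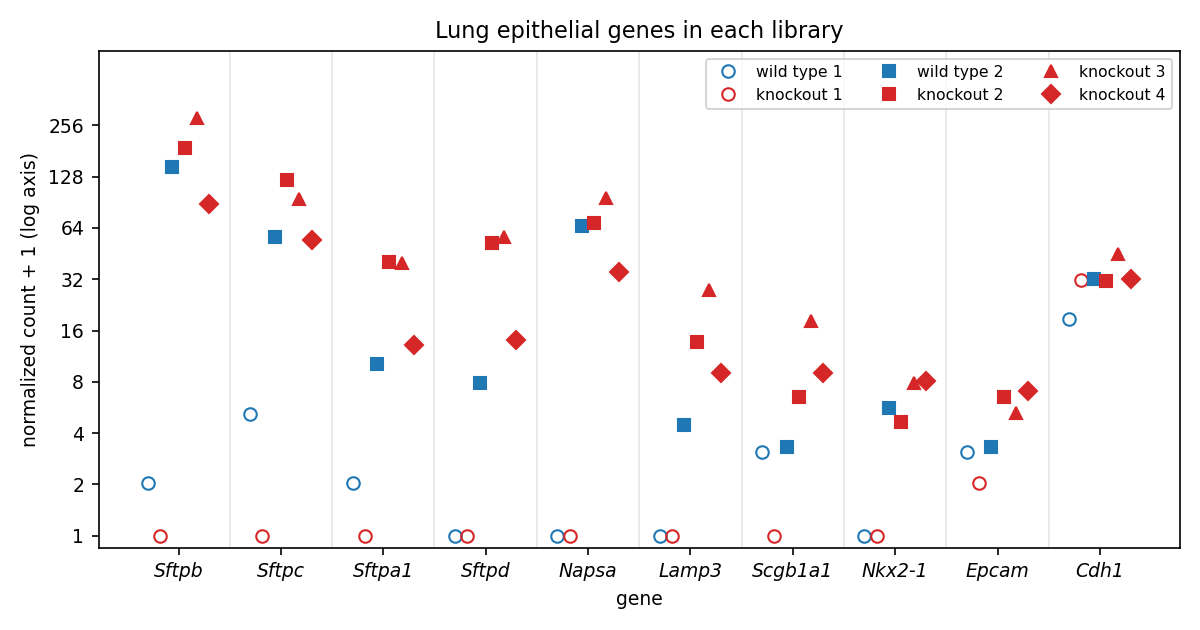
Normalized count plus 1 (log axis) of the 10 lung epithelial genes, each point a library, blue for wild type and red for knockout, with open circles for wild type 1 and knockout 1. Sftpb stands at 87.8 to 280 normalized counts in the filled libraries and at 0 and 1.05 in the open ones, whereas Cdh1 stands at 17.8 to 43.7 in all 6.

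Summed over the 10 genes, wild type 1 had 27 reads and wild type 2 had 282, while knockout 1 to 4 had 31, 573, 770 and 259. As a share of all reads this was 0.665 ppm in wild type 1 (95% exact Clopper-Pearson interval 0.438 to 0.968) and 8.62 in wild type 2 (7.65 to 9.69). In knockout 1 to 4 the share was 0.762 (0.518 to 1.08), 12.9 (11.9 to 14.05), 16.9 (15.7 to 18.1) and 7.03 (6.20 to 7.94) ppm. Cdh1 alone gave 17 of the 27 reads in wild type 1 and 30 of the 31 in knockout 1, where the only other read was of Epcam. Thus 6 of the 10 genes had a read in wild type 1, 2 in knockout 1 and all 10 in each of the other 4 libraries.

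In 9 of the 10 genes wild type 1 and knockout 1 were both below the other 4 libraries, the exception being Cdh1. For Scgb1a1 and Epcam this rests on 2 reads in wild type 1 and 2 in wild type 2. For Lamp3 and Nkx2-1 it rests in wild type on 3 and 4 reads against 0. The lower counting limits of those 2 ratios, 0.455 and 0.726, are below 1. The same order held for 26.6% of the 20479 genes averaging 1 or more normalized counts. A gap of at least 8-fold between the sets, on the value plus 1, was reached by 3 of the 10 genes, Sftpb, Sftpc and Napsa, and by 0.83% of those genes. The split was known from earlier results of these data, so these counts are a description and were not tested.

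Levels can be compared between genes only per length, and this was done in the 4 libraries with surfactant reads. Sftpb stood at 1.96, 2.35, 3.63 and 1.20 RPKM in wild type 2 and knockout 2, 3 and 4, and Sftpc at 1.42, 2.88, 2.31 and 1.39. The 2 genes changed places between libraries and so do not differ beyond their spread. Napsa stood at 0.644, 0.628, 0.907 and 0.347 and Scgb1a1 at 0.128, 0.285, 0.921 and 0.456, so that Napsa was higher in wild type 2 and knockout 2 and Scgb1a1 in knockout 3 and 4. Sftpd stood at 0.0759, 0.523, 0.590 and 0.146 and Sftpa1 at 0.0855, 0.340, 0.345 and 0.114. Napsa was above both Sftpd and Sftpa1 in each of these libraries, though its range overlapped those of Sftpd and Scgb1a1. The ranges of Scgb1a1, Sftpd and Sftpa1 overlapped one another. Cdh1 stood at 0.163 to 0.244, and Lamp3 (0.0273 to 0.203), Nkx2-1 (0.0318 to 0.0669) and Epcam (0.0279 to 0.0742) had low and overlapping ranges.

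The proportions of the surfactant genes differed between some of these 4 libraries by more than counting error. The spread to be expected between separate libraries of 1 group was not measured for wild type, and the knockout libraries differed among themselves, with Sftpb intervals that do not overlap between knockout 2 and 3. Of the reads of the 4 surfactant protein genes, Sftpb took 67.0% in wild type 2 (95% exact binomial interval 59.8 to 73.7) and 47.0% (42.3 to 51.8), 59.8% (55.6 to 63.96) and 52.7% (44.8 to 60.5) in knockout 2, 3 and 4. Sftpd took 3.19% in wild type 2 (1.18 to 6.82), and 12.8% (9.85 to 16.4), 11.9% (9.33 to 14.9) and 7.88% (4.26 to 13.1) in knockout 2, 3 and 4. The Sftpd intervals of knockout 2 and 3 lie above that of wild type 2, while that of knockout 4 overlaps all 3. Sftpc took 25.5% (19.5 to 32.4) in wild type 2 and 30.3% (26.0 to 34.8), 20.0% (16.7 to 23.6) and 32.1% (25.1 to 39.8) in knockout 2, 3 and 4. Sftpa1 took 4.26% (1.85 to 8.21) in wild type 2 and 9.86% (7.23 to 13.1), 8.26% (6.09 to 10.9) and 7.27% (3.81 to 12.4), with overlapping intervals. The totals behind these shares were 188, 436, 545 and 165 reads. With a single wild type library here, the differences in share are between libraries and not tested between genotypes.

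**Figure D2:**
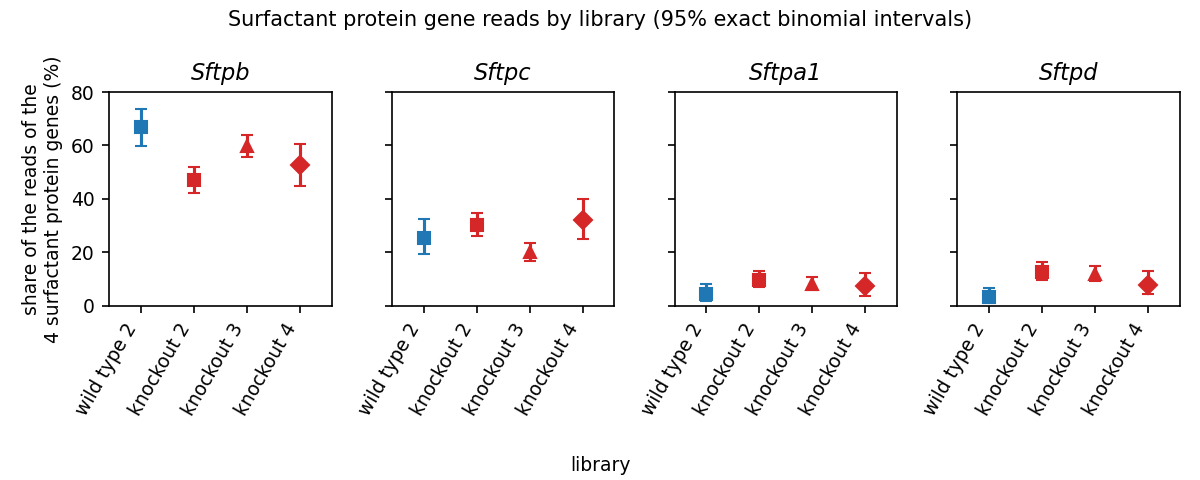
Share (%) of the reads of the 4 surfactant protein genes taken by each gene in wild type 2 (blue) and knockout 2, 3 and 4 (red), with 95% exact binomial intervals. Sftpb has its highest share in wild type 2 (67.0%) and Sftpd its lowest there (3.19%).

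The comparison of genotypes asked whether loss of ZMPSTE24 went with a change in these genes. The mean of Sftpb was 73.1 ± 102 (SD, n = 2) in the wild type and 139 ± 121 (SD, n = 4) in the knockout libraries, so the SD was of the size of the mean. The log2 difference, on the scale of log2(normalized count + 1), was 1.43 ± 2.79 (SE). Sftpc differed by 0.72 ± 2.19, Sftpa1 by 1.39 ± 1.69, Sftpd by 2.35 ± 1.87, Napsa by 1.44 ± 2.42 and Cdh1 by 0.49 ± 0.37. All 6 of these genes had an adjusted p of 1.00 (limma, two-sided), with the 95% interval of each including 0. The other 4 genes had means under 10 normalized counts and were not tested in that fit. With a minimum of 1, Scgb1a1 differed by 0.84 ± 1.13, Epcam by 0.56 ± 0.62, Nkx2-1 by 0.81 ± 1.10 and Lamp3 by 1.86 ± 1.39, at an adjusted p of 1.00 each. Limma called 0 of the 6 tested genes and gave 0 of them an unadjusted p under 0.05. Neither edgeR nor DESeq2 called any of the 6. Of the 15229 genes tested, limma called 0.00657%, edgeR 0.00657% and DESeq2 0.046%, and 0.939% had an unadjusted p under 0.05 by limma. No gene among the 10 had all knockout libraries above or all below both wild type libraries, which occurred in 2.83% and 3.46% of genes with a mean of at least 1.

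The direction of 3 genes changed when wild type 1 was left out with knockout 1 kept. Without it, Sftpb differed by −1.65, Sftpc by −1.002 and Napsa by −1.58, and without wild type 2 by 4.51, 2.44 and 4.45. With the library set, wild type 1 and knockout 1 against the other 4, as a term, the log2 difference was −0.30 ± 0.57 (SE) for Sftpb, −0.59 ± 0.74 for Sftpc and −0.057 ± 0.48 for Napsa. It was 0.44 ± 0.78 for Sftpa1, 1.28 ± 0.82 for Sftpd and 0.39 ± 0.30 for Cdh1. Limma called 0 of the 6 in this fit (0 at an unadjusted p under 0.05), as did edgeR and DESeq2, against 0.00657%, 0.0131% and 0.328% of all tested genes, of which 3.51% had an unadjusted p under 0.05 by limma. By edgeR with the same term the signs of Sftpb, Sftpc and Napsa were positive, at 0.27, 0.29 and 0.02. Within the 4 libraries of the larger set alone, Sftpd differed by 2.13 ± 0.94 (95% interval −0.40 to 4.66), Lamp3 by 1.76 ± 0.74, Sftpa1 by 1.43 ± 0.80, Sftpc by 0.60 ± 0.52, Sftpb by 0.20 ± 0.69, Cdh1 by 0.15 ± 0.37 and Napsa by −0.10 ± 0.63, with 0 of these and 0 (0%) of all 14998 genes called by limma. In that comparison, and in the fits without wild type 1 or 2, the single wild type library is assumed to vary like the knockout libraries. Wild type 2 was below knockout 2, 3 and 4 in 5 of the 10 genes (Sftpa1, Sftpd, Lamp3, Scgb1a1 and Epcam), an order found in 20.9% of genes with a mean of at least 1. Wild type 2 and knockout 4 were both below knockout 2 and 3 in 6 of the 10 (the 4 surfactant protein genes, Napsa and Lamp3), against 26.9% of such genes.

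**Figure D3:**
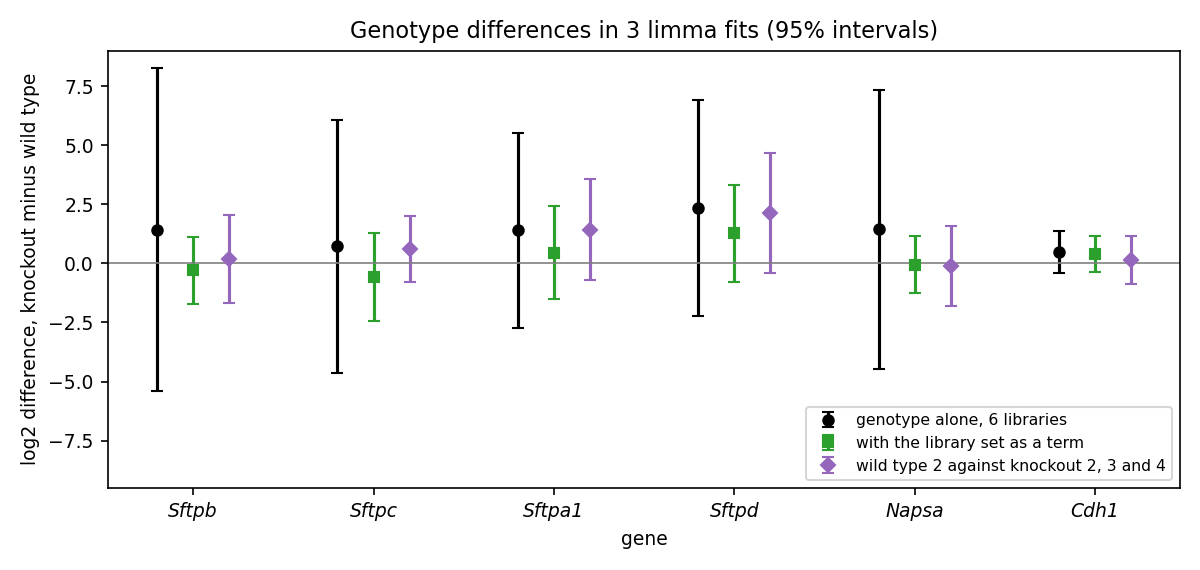
Log2 difference, knockout minus wild type, of the 6 tested genes with 95% intervals in 3 limma fits, over all 6 libraries by genotype alone (black), with the library set as a term (green) and in wild type 2 against knockout 2, 3 and 4 (purple). Every interval includes 0, and for Sftpb the value is 1.43, −0.30 and 0.20 in the 3 fits.

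The alveolar type 2 list holds 6 of the 10 genes (the 4 surfactant protein genes, Napsa and Lamp3), and its other 12 genes were split, with several low in wild type 1 and knockout 1 and others highest there. Slc34a2, the phosphate transporter gene of type 2 cells, was at 0 in wild type 1 and knockout 1, and at 26.5, 107, 127 and 40.4 normalized counts in wild type 2 and knockout 2, 3 and 4. Cxcl15, a lung chemokine gene, was at 0 and 1.03 in wild type 1 and knockout 1, against 48.4, 26.5, 29.2 and 24.2 in the other 4. Chil1, a chitinase-like gene, was at 4.19 and 3.08 there, against 46.1, 155, 125 and 51.5 in the other 4. By contrast Abca3, the lipid transporter gene of lamellar bodies, had 2686 to 4883 in all libraries, with its highest levels in wild type 1 and knockout 1. Lpcat1 (1183 to 2152), which encodes a phospholipid acyltransferase, and Ctsh (1092 to 4201), the cathepsin H gene, also had their highest level in wild type 1 and their next in knockout 1. Etv5, a transcription factor gene, had 1149 to 1552, and Muc1, a membrane mucin gene, was at 30.4 and 44.2 in wild type 1 and knockout 1, against 78.3 to 110 in the other 4. Of the 11 of these 12 genes that averaged 1 or more, 5 were below the other libraries in wild type 1 and knockout 1 and 4 above, against 26.6% and 28.3% of all such genes. Of the 14 tested genes of the whole list of 18, 0 were called by limma (0 at an unadjusted p under 0.05), edgeR or DESeq2. Their median log2 difference was 0.91 by genotype alone and −0.08 once the library set was in the model, against 0.00 over all tested genes in both.

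Markers of the other lung epithelial cells were mixed. Among type 1 genes, Cldn18, a tight junction gene of the alveolus, had 0 in wild type 1 and knockout 1 and 28.8, 34.7, 37.7 and 20.2 in wild type 2 and knockout 2, 3 and 4. Ager, the gene of the type 1 cell receptor RAGE, was at 31.4 and 46.2 in wild type 1 and knockout 1, against 55.5 to 96.0 in the other 4, and Aqp5, a water channel gene, went the other way with 28.3 and 37.0 against 14.1 to 17.1. The most abundant genes of the list were Pdpn, which lymphatic and mesothelial cells also express (4795 to 12158), Gprc5a (616 to 1884), Krt7 (310 to 993), Spock2 (70.9 to 1533) and Lmo7 (259 to 420). Of the 12 type 1 genes, 5 were below and 5 above the other libraries in wild type 1 and knockout 1, against 26.6% and 28.3% of all genes with a mean of at least 1. In the club and secretory list, Aldh1a1, a retinaldehyde dehydrogenase gene, had 13989 to 52021 normalized counts, and Hp, the haptoglobin gene, was at 247 and 651 in wild type 1 and knockout 1, against 4932 to 25078 in the other 4. Both genes are also expressed outside the airway. Cyp2f2, a cytochrome gene of club cells, had 0 in wild type 1 and knockout 1 and 17.3, 44.7, 14.6 and 17.2 in the other 4. The club cell genes Scgb3a2 and Gabrp and the goblet cell genes Agr2 and Tff2 had no read in any library, and 6 of the 16 club and secretory genes had none. Foxj1, the transcription factor gene of ciliated cells, had 1.82 to 8.07 normalized counts, and Krt5 and Trp63, which define basal cells, reached at most 1.71 and 5.14. Other genes of the ciliated list were higher, with Ccdc39 at 44.0 to 106, Rsph1 at 19.7 to 75.4, Tppp3 at 36.6 to 63.6 and Cfap126 at 14.6 to 28.3. Tekt1, also of that list, was at 0 and 3.08 in wild type 1 and knockout 1, against 6.91 to 39.2 in the other 4. Ngfr, of the basal list, had 2.30 to 45.4.

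The keratin genes Krt8, Krt18 and Krt19 and several lineage factors were abundant in every library. Krt8 had 266 to 939 normalized counts, Krt18 237 to 1970 and Krt19 91.0 to 389, all of them keratins that mesothelial cells share with simple epithelia. The mesothelial genes Msln (4928 to 42001), Upk1b (1212 to 18587) and Lrrn4 (1915 to 10582) were read in the same libraries. Spint2, a protease inhibitor gene (454 to 858), and Esrp2, an epithelial splicing factor gene (184 to 739), were also read in all libraries. Of the 28 general epithelial genes with a mean of at least 1, 4 were below the other libraries in wild type 1 and knockout 1 and 7 above. Over all genes with such a mean, the shares were 26.6% below and 28.3% above. Cldn7, Ehf and Grhl2, genes of epithelial junctions and identity, stayed at or below 5.14 normalized counts. Gata6 (3280 to 5840) and Etv5 (1149 to 1552), factors with roles in lung epithelium and in other tissues, were present throughout, whereas Sox2, the airway factor gene, had 0 in wild type 1 and knockout 1 and 1.01 to 6.91 in the other 4. Foxa2 (129 and 411 against 18.2 to 82.8) and Sox9 (609 and 336 against 158 to 240) were higher in wild type 1 and knockout 1. Of the 14 transcription factor genes, 6 were below and 3 above the other libraries there, against the same 26.6% and 28.3% of genes. The repressor genes of E-cadherin were abundant, with Zeb1 at 4235 to 8577, Zeb2 at 5808 to 11328, Snai1 at 1129 to 2882 and Snai2 at 892 to 1992.

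None of the epithelial, mesothelial and repressor lists held a gene called between genotypes by limma, edgeR or DESeq2. At an unadjusted p under 0.05, limma gave 1 of 4 tested club and secretory genes (Cbr2, a carbonyl reductase gene, log2 difference 1.98 ± 0.80, SE, adjusted p = 1.00). It gave 0 of 11 type 1, 0 of 5 ciliated, 0 of 1 basal, 0 of 16 general epithelial, 0 of 7 transcription factor, 0 of 15 mesothelial and 0 of 6 repressor genes. The median log2 difference was 0.20 over the type 1 genes, 1.65 over the club and secretory, 0.14 over the ciliated, −0.26 over the general epithelial, 0.11 over the transcription factor, −0.05 over the mesothelial and −0.20 over the repressor genes, against 0.00 over all tested genes. With the library set as a term, limma, edgeR and DESeq2 called 0 in each of these lists.

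Markers of other cell types also differed between the same libraries. The 14 macrophage genes summed to 10181 normalized counts in wild type 1 and 7426 in knockout 1, and to 36123 to 56198 in the other 4. Lyz2, the lysozyme gene of macrophages, was at 856 and 718 in wild type 1 and knockout 1, against 18131 to 27455 in the other 4. Ccl6, a chemokine gene, was at 73.3 and 58.5 against 5470 to 8147, and Chil3, a chitinase-like gene, at 33.5 and 28.8 against 2835 to 5020. Cd14, a receptor gene for bacterial lipid (1498 to 4672), and Mertk, a phagocytosis receptor gene (1481 to 4794), did not follow this split, with Mertk highest in wild type 1. Over all genes with a mean of at least 1, 26.6% were below the other libraries in wild type 1 and knockout 1, 0.83% by at least 8-fold, and 28.3% above. These shares are the background for the counts of the macrophage, mesothelial, endothelial and fibroblast lists. Of the 14 macrophage genes 10 were below the other libraries in wild type 1 and knockout 1, 7 of them by at least 8-fold, and 1 was above. Ear2, an alveolar macrophage gene, was at 0 in both libraries, and Cd52, a leukocyte surface gene, at 2.09 and 0. The 15 mesothelial genes summed to 41619 and 92737 in wild type 1 and knockout 1 and to 16596 to 31814 in the other 4, with 1 gene below and 6 above. The 8 endothelial genes summed to 142312 and 82706 against 29337 to 47611, with 7 above and 0 below. The 6 fibroblast genes summed to 401577 to 470819, with 4 genes below and 1 above in wild type 1 and knockout 1. This sum was above the endothelial sum in every library, but the sums are not scaled for gene length. The collagen genes Col1a2 and Col1a1 were at 140619 to 184725 and 78891 to 173437. Pdgfra, a growth factor receptor gene of fibroblasts, was at 5842 and 3946 in wild type 1 and knockout 1, against 34290 to 69228 in the other 4. Between genotypes alone, 0 genes of these 4 lists were called by limma, edgeR or DESeq2, with 1 of 13 tested macrophage, 0 of 15 mesothelial, 1 of 8 endothelial and 0 of 6 fibroblast genes at an unadjusted p under 0.05 by limma. Once the library set was in the model, DESeq2 called 1 of them, against 50 (0.328%) of all 15229 tested genes. This was the endothelial gene Vwf, which encodes von Willebrand factor (log2 difference −0.82, DESeq2 adjusted p = 0.0012). Limma (adjusted p = 0.999) and edgeR (adjusted p = 0.909) did not call Vwf. The median log2 difference was 0.75 over the macrophage, −0.66 over the endothelial and 0.55 over the fibroblast genes by genotype alone, and 0.01, −0.43 and 0.01 in the limma model that holds the library set. The part of these cell types in the surfactant result was not tested. In bulk RNA, fewer cells of a type and less RNA per cell cannot be told apart.

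Among the genes whose pattern over the 6 libraries was most like that of Sftpb were Ms4a4a and Ctss, at root mean square distances of 0.32 and 0.34 on the centred log2 scale. For Sftpc they were Ms4a6b, F7 and Scn7a, at 0.41, 0.42 and 0.43. The candidates were 12036 genes averaging 50 or more normalized counts. Ctss, which encodes the lysosomal protease cathepsin S, was at 18.8 and 14.4 normalized counts in wild type 1 and knockout 1, against 1907, 2015, 2895 and 1653 in wild type 2 and knockout 2, 3 and 4. F7, the coagulation factor VII gene, was at 3.14 and 0 in these 2 libraries, against 85.3, 97.6, 147 and 79.7 in the other 4.

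**Figure D4:**
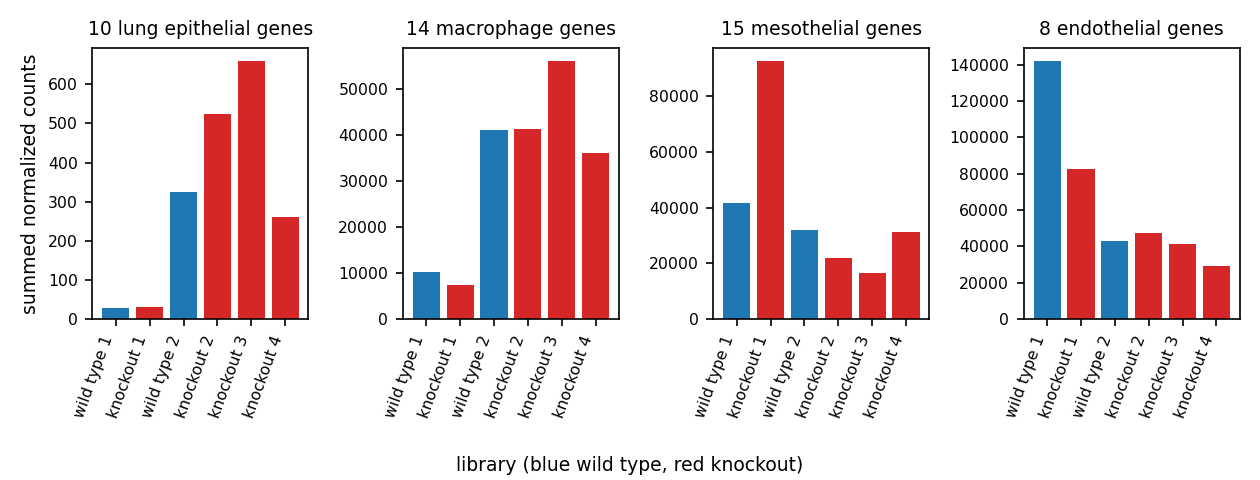
Summed normalized counts per library (blue wild type, red knockout) of the 10 lung epithelial genes and of the lists of 14 macrophage, 15 mesothelial and 8 endothelial genes, each panel with its own axis from 0. The lung epithelial sum is 28.3 and 31.8 in wild type 1 and knockout 1 and 261 to 660 in the other 4, and the macrophage sum is also lowest in those 2 libraries, while the endothelial sum is highest there.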

How the data were processed

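Poly(A) RNA of 6 libraries was sequenced as single-end reads of 100 nt. The deposited values are a normalized count signal per gene, read counts that the authors divided by a size factor per library. Per the submitters' processing notes, Trimmomatic 0.36, STAR 2.6.0c, featureCounts of Subread 1.6.1 and GRCm38.p6 were used. The series design text names Trimmomatic 0.32, STAR 2.4.2a, HTSeq and DESeq2 1.10.1, and the sources used here do not say which of them gave the deposited values. Whole reads were recovered for 100% of values, within 1e-06 of a read.

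Genes averaging 10 or more normalized counts were tested with limma 3.58.1 in R 4.3.3 on log2(normalized count + 1). Genotype was the sole term, with a mean trend and Benjamini-Hochberg adjustment at 0.05. The counting error is 31.6% at a count of 10, larger below it and smaller above. The pseudocount compresses low values, so differences of low genes depend on it. Alternatives were pseudocounts, filters, TMM scaling, the count models of edgeR 4.0.16 and DESeq2 1.42.0, the title number or the library set as a term, and each library left out. The limma fits by genotype alone and with the library set, and edgeR and DESeq2 with the library set, were also run on simulated data. No gene as low as the surfactant protein genes and Napsa in wild type 1 and knockout 1 was changed there. The simulation therefore cannot speak for those genes. Within a genotype no pair of libraries agreed within sampling noise (chi-square per gene 28.4 or more). Gene lengths and positions are from GENCODE on GRCm38, promoters from RefSeq. The 10 genes and all lists were chosen with earlier results of these data known. The rule for naming took all 10 genes, called or up to 5 of the most abundant genes of a list, and for genes of mean at least 50 the 3 nearest in pattern, of which 1 is not reported here. Not every list is named to 5, and list genes outside the rule were chosen after their values were seen.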

Additional observations from a re-analysis of the deposited data

Results flagged for a closer look

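Cdh1 had 43.7 normalized counts in knockout 3 against 30.1 to 31.3 in the other 3 knockout libraries, a gap that is large for the range of the group. Its 51 reads carry a 95% exact Poisson interval of 32.6 to 57.5 normalized counts, which overlaps that of knockout 4 (21.3 to 44.4). Of 11 values examined in this way, the 10 genes and their sum, this was the only one, and chance flags about 1 in 20 groups.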

How the results depend on the processing

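The number of genes called over the whole table was 1 by limma. It was 2 with a pseudocount of 5, 7 by DESeq2, 0 in the 4 libraries alone, and, with the library set in the model, 2 by edgeR and 50 by DESeq2, and 0 to 2 with a library left out (2 without knockout 1, 0 without knockout 2, 3 or 4). These fits tested only 6 or 7 of the 10 genes and called none of them. With a minimum mean of 1 normalized count, limma tested all 10 and called 0. Without knockout 1, limma gave 3 of the 7 tested an unadjusted p under 0.05, against 676 of all 15191 genes tested in that fit. There wild type 1 was the only library of its set. Sftpa1, Sftpd and Cdh1 kept their direction under all 18 alternatives, but fell from 1.39, 2.35 and 0.49 to 0.23, 0.85 and 0.11 without wild type 1, and rose to 2.55, 3.84 and 0.88 without wild type 2. Without knockout 1, Sftpa1 was 2.59 and Sftpd 3.62, and without knockout 2 or 3 Sftpa1 was 0.81 or 0.82. With a library left out, Sftpb ranged from −1.65 to 4.51, Sftpc from −1.002 to 2.44 and Napsa from −1.58 to 4.45, below 0 in each case without wild type 1. With the library set as a term they were −0.30, −0.59 and −0.057 by limma. By edgeR they were 0.27, 0.29 and 0.02, and by DESeq2 0.15, −0.19 and 0.02, both fitted in the same way and added after seeing the data. Napsa was −0.10 in the 4 libraries alone. With the title number as a replicate block, Sftpb was −0.33, Sftpc −0.63, Napsa 0.03, and 0 genes were called over the table (781 at an unadjusted p under 0.05). The labels do not say that a number marks a shared animal or day. Deviations from the group means correlated at 0.84 between wild type 1 and knockout 1, which share a number and gave the highest value. For wild type 2 they correlated at 0.56 with knockout 2, 0.67 with knockout 3 and 0.53 with knockout 4. There the shared number did not give the highest value. With 2 wild type libraries, their deviations are equal and opposite, so the values of wild type 1 and wild type 2 are not separate evidence. Without Sftpb, the summed share was 4.77 ppm of reads in wild type 2 and 8.31, 9.73 and 4.67 in knockout 2, 3 and 4. Nkx2-1 and Epcam had 0 to 8 reads per library, which limits the precision of their values. The causes of these shifts were not tested.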
